A study of Mus musculus with 18 samples.

Results

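Binding sites of RAD21, a subunit of cohesin, were examined at 40 genes that guide B cells to their places in lymphoid tissue and let them adhere there. The list was made by name and by function, with earlier results of these data known. It holds 7 chemokine receptors, 6 receptors for lipid and related ligands, 13 adhesion molecules, the transcription factor Klf2, 3 RGS proteins, 7 genes of migration signalling and 3 chemokines. The annotation of the genome assembly mm9 held 39 of them. P2ry8 was not among its genes and is not analysed here. A peak was assigned to a gene when its centre lay in the gene body or within 20 kb of it. By this rule, 257 of the 54864 peaks of the 12 lists lay at these genes. They formed 70 of the 18957 sites of the series, a site being the union of peaks that shared 1 bp or more across lists. No site belonged to more than 1 of the genes, although the windows of Ccl3 and Ccl4, and those of S1pr2 and Icam1, overlapped. The transcription start nearest to the site was that of the listed gene at 43 of the 70 sites, and another protein-coding gene had the nearest start at the others.

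The cells were B cells purified from the spleens of C57BL/6J mice (C57BL/6 in the labels) aged 8 to 10 weeks, wild type in all groups. Resting B cells were taken without stimulation, and stimulated B cells after culture of 48 h or 96 h in medium with LPS (50 µg/ml), a bacterial activator of B cells, together with IL-4 (2 ng/ml), which directs the class switch to IgG1. At 96 h the cells were also enriched for IgG1-positive cells by negative selection, so duration of culture and purification cannot be told apart. Each time point had 3 biological replicates, each pooled from 12 mice, and the authors merged the replicates into 1 pooled list per time point. The lists gave positions and scores without read counts, so the reads behind a peak are unknown. The identity of the cells could not be checked against marker genes in peak lists. In chromatin from many cells, fewer cells with cohesin at a site and less cohesin at that site in each cell cannot be told apart, and a site missing from a list had only not passed the caller's threshold.

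Cohesin is a ring-shaped complex that holds DNA segments together. It extrudes chromatin loops until it is halted, most often at sites of the DNA-binding protein CTCF that face the oncoming complex, and it is also found at active promoters and enhancers. B cells find the follicle, the T cell zone, the bone marrow or the gut by chemokine receptors, leave lymphoid organs along sphingosine-1-phosphate, and arrest on vessel walls and stromal cells by integrins and their ligands. Many of these genes are switched on or off when B cells are activated and become plasma cells.

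The 8 sequences that follow are shown because they lie at the sites that were called in the most replicates among those with a match to a core of the CTCF motif, 1 per gene, with ties broken by the higher median score percentile in the replicates. The core was CC, any 3 bases, AG, any 2 bases and GGC. Both strands were searched in the 300 bases around the centre of each site. Each stretch is 30 bases of mm9, written 5′ to 3′ on the strand given, with the match in capitals.
Itgb2, chr10:76979956-76979985, minus strand: acacgcgcgCCCTCAGGCGGCaggaagaag
Selplg, chr5:114294934-114294963, minus strand: aggaacctaCCACCAGAGGGCactgctccc
Cd24a, chr10:43294896-43294925, plus strand: tccatgtggCCAGCAGAGGGCagcacatcc
Itgb7, chr15:102055189-102055218, plus strand: ttctgtaccCCAAGAGGAGGCtcactgaac
Gnai2, chr9:107504543-107504572, plus strand: aagaagcagCCACGAGGGGGCagtagagac
Arhgef1, chr7:25675638-25675667, plus strand: actcttcggCCACTAGGTGGCagctgctag
Icam2, chr11:106253338-106253367, minus strand: ctttctccaCCACTAGATGGCactcatgtg
Cxcr5, chr9:44310312-44310341, minus strand: ctccactgaCCGGTAGGTGGCagcataggc
A match was present in 28 of the 70 sites (40%), against 37.4% of all sites of the series and 5.07% of windows 1000 bp away from them. The series includes 4763 sites called in replicate 2 of 48 h and no other replicate, of which 1.55% had a match. By pooled list, the shares were 52.8% against 49.3% at rest, 31.6% against 29.3% at 48 h and 44.4% against 51.0% at 96 h. A match was present in 13 of the 21 sites that were in the pooled lists of resting and 96 h-stimulated B cells but not in that of 48 h (61.9%), against 53.5% of all such sites. It was present in 0 of the 5 sites in the pooled list of 48 h alone, against 2.50%, and in 6 of the 20 in that of 96 h alone (30%), against 51.8%. A match is a description of letters and was not tested as a binding site.

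Replicate 2 of 48 h-stimulated B cells stood apart from the other libraries. Tandem repeats (units of up to 4 bases, 20 bases or longer) were found in 64.8% of its sites and the motif in 3.36%, against 5.61% to 8.39% and 49.2% to 53.1% in the other 8 replicates. At the listed genes it was the only replicate at 5 sites, and 2 of these held a repeat, which are printed here on the plus strand of mm9 because they were the peaks of that replicate at an integrin and at a signalling gene.
Itga4, chr2:79147103-79147132, part of a repeat of 34 bases: ctctctctctctctctctctctctctctct
Gnai2, chr9:107548568-107548589, the whole repeat of 22 bases: tctctctctctctctctctctc
Repeats were also found in 35.3% of the sites of the pooled list of 48 h, which contains the reads of this replicate, against 8.21% for the resting and 7.85% for the 96 h pooled list.

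Most of the listed genes had a RAD21 peak in resting B cells, fewer had one at 48 h, and most had one again at 96 h. In the pooled list of resting B cells, 24 of the 39 genes (61.5%) had a peak, against 26.5% of all protein-coding genes. At 48 h there were 14 of 39 (35.9%), against 20.8%, and at 96 h 28 of 39 (71.8%), against 47.6%. Longer genes offer more room for a peak, so each gene was also set beside the other protein-coding genes whose bodies differed in length by a factor of at most 1.5. Of these, 27.6%, 20.9% and 49.4% had a peak in resting, 48 h-stimulated and 96 h-stimulated B cells. The share among homing and adhesion genes was thus 2.23, 1.72 and 1.45 times that of genes of similar length. Set beside genes with similar length and similar numbers of neighbouring genes, the ratios were 2.46, 1.75 and 1.57. The ratio at 48 h depended on the repeat-rich replicate 2. With pooled peaks supported by that replicate alone removed, 14 of 39 genes had a peak at 48 h, against 16.5% for similar length, a ratio of 2.17. With the same done for replicates 1 and 3 of 48 h, the ratios were 1.83 and 1.97. The list was chosen with earlier results known, so the ratios are a description and were not tested.

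The pooled lists differed in length, with 5690, 5579 and 12806 peaks. When each was limited to its 5579 peaks of highest score, 24, 14 and 19 of the genes had a peak, and the share at 96 h became 48.7%, against 27.7% for genes of similar length. When a pooled peak also had to be called in at least 2 replicates of its time point, 14 genes (35.9%) remained in resting B cells, 3 (7.69%) at 48 h and 18 (46.2%) at 96 h, against 10.4%, 3.86% and 23.6% for similar length.

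**Figure D1:**
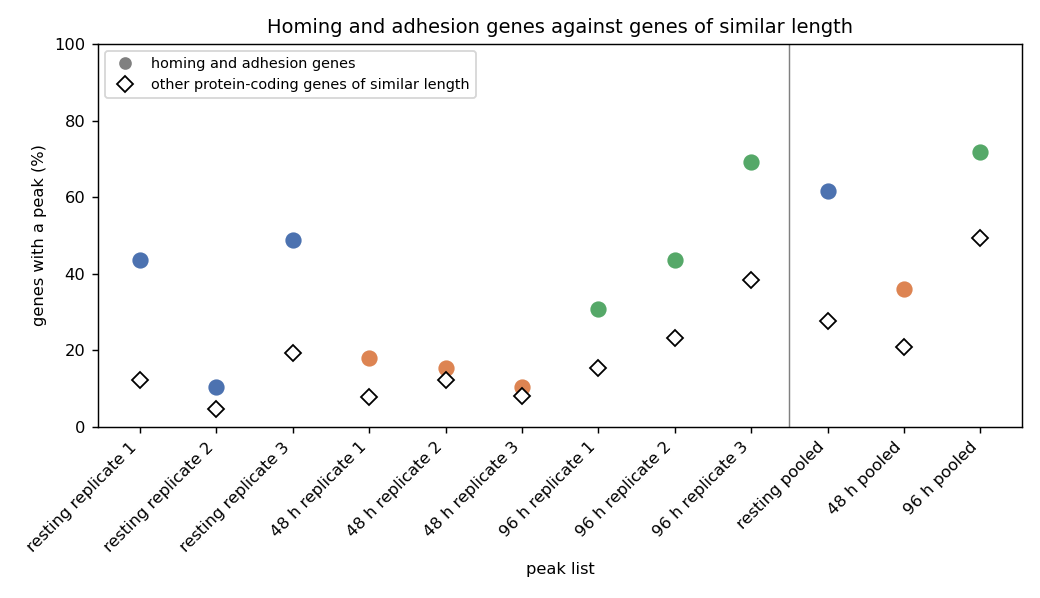
Percent of the 39 homing and adhesion genes (filled circles, coloured by time point) and of other protein-coding genes of similar length (open diamonds) with a RAD21 peak in each of the 9 replicate lists and the 3 pooled lists. The circles lie above the diamonds in all 12 lists, closest in replicate 3 at 48 h, with 10.3% against 8.06%, and farthest in the resting pooled list, with 61.5% against 27.6%.

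The single replicates varied widely in the number of peaks. Of the 39 genes, 17, 4 and 19 had a peak in replicates 1, 2 and 3 of resting B cells, 7, 6 and 4 in those of 48 h, and 12, 17 and 27 in those of 96 h. The replicates of resting and of 96 h-stimulated B cells therefore overlapped, and the lowest resting replicate equalled the lowest replicate of 48 h. These lists held 2097, 821 and 3578 peaks in resting B cells, 1538, 5254 and 1563 at 48 h, and 2807, 4552 and 8579 at 96 h. With the number of peaks taken into account, the genes held 0.954%, 0.487% and 0.699% of the peaks of the resting replicates, 0.455%, 0.133% and 0.256% of those of 48 h, and 0.534%, 0.549% and 0.478% of those of 96 h. The means were 0.713% ± 0.234, 0.281% ± 0.162 and 0.521% ± 0.0376 (SD, n = 3 each). All 3 values at 48 h lay below all values of the other time points, with or without replicate 2, while resting and 96 h-stimulated B cells overlapped. The gap between the highest value at 48 h, 0.455%, and the lowest elsewhere, 0.478%, was narrow. It did not hold at every setting. With a score minimum of 10.65, resting replicate 2 lost all its 4 peaks, at scores of 5.95 to 8.96, and fell below the 48 h replicates. With 5 kb around the gene, its share fell below that of replicate 1 of 48 h. With 50 kb the means were 0.851% ± 0.576 at 48 h and 0.989% ± 0.0798 at 96 h, and the replicates overlapped.

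In replicate 2 of 48 h only 52.1% of peaks lay at any protein-coding gene, against 75.8% to 80.2% in the other replicates. Counted as a share of the peaks at any protein-coding gene, the listed genes held 1.20%, 0.617% and 0.871% in resting B cells, 0.587%, 0.256% and 0.338% at 48 h, and 0.674%, 0.688% and 0.604% at 96 h. The values of 48 h were again the lowest, by a margin of 0.587% against 0.604%.

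**Figure D2:**
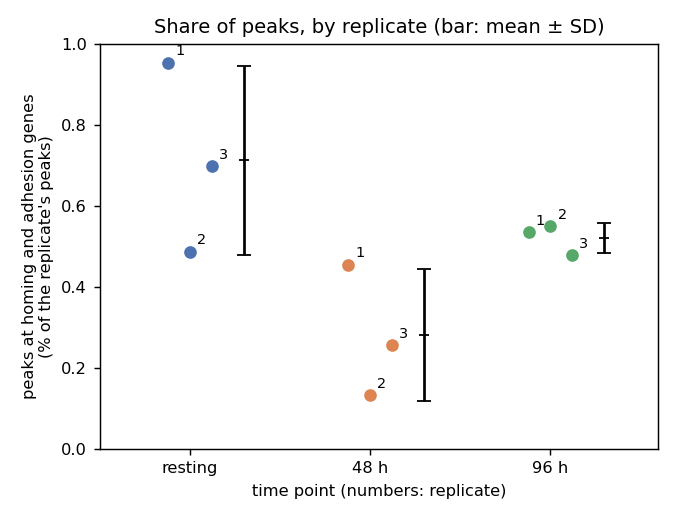
Percent of each replicate's RAD21 peaks that lay at the homing and adhesion genes, by time point, with 1 point per replicate, numbered, and bars for the mean ± SD of 3 replicates. The points of 48 h, at 0.133% to 0.455%, lie below those of resting B cells, at 0.487% to 0.954%, and of 96 h, at 0.478% to 0.549%.

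In the pooled lists, 11 of the 39 genes (28.2%) had a peak at all 3 time points, against 13.7% of all protein-coding genes. These were Ccr7, S1pr1, Selplg, Itgb2, Icam1, Cd44, Gnai2, Arhgef1, Dock2, Coro1a and Rac2. A further 12 (30.8%, against 11.4% of all genes) had a peak in resting and 96 h-stimulated B cells but not at 48 h, namely Cxcr5, Cxcr4, Ccr6, Ccr10, S1pr3, Itga4, Itgb7, Icam2, Cd24a, Rgs2, Gna13 and Ccl3. Peaks at 96 h alone were found at S1pr4 and Itgal (5.13%, against 18.3% of all genes), and at 48 h and 96 h at Ccr9, Itgb1 and Rgs1 (7.69%, against 4.27%). At 48 h alone, 0 of the 39 genes had a pooled peak, against 2.53% of all genes. Cd47, a ligand that restrains phagocytes, had a pooled peak in resting B cells and none in any single replicate.

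At least 1 replicate had a peak at 28 of the 39 genes (71.8%), against 47.8% of all protein-coding genes. At least 6 replicates had one at 7 genes (17.9%, against 6.29%), which were Itga4, Itgb2, Cd24a, Gnai2, Dock2, Coro1a and Rac2. All 3 resting replicates had a peak at Ccr7, Gnai2, Dock2 and Rac2, which is 4 genes or 10.3%, against 3.32% of all genes. All 3 replicates of 48 h had one at Dock2, 1 gene or 2.56%, against 0.925%. At 96 h all replicates had a peak at 11 genes (28.2%, against 11.3%), which were Cxcr5, Ccr9, Selplg, Itga4, Itgb2, Itgb7, Cd24a, Gnai2, Dock2, Coro1a and Rac2.

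No list had a peak at 10 of the 39 genes (25.6%), against 44.7% of all protein-coding genes. They were Cxcr3, S1pr2, Gpr183, Itgam, Cd9, Klf2, Rgs13, Dock8, Ccl4 and Ccl22. Among them are receptors with opposed roles in the follicle, Gpr183, which draws activated B cells to its edge, and S1pr2, which keeps B cells in the germinal centre. Klf2, a transcription factor that maintains S1pr1 expression, had no site in its 2624 bp or the 20 kb on either side. Dock8, an activator of the GTPase CDC42 in migrating lymphocytes, spans 202904 bp, and 64.6% of genes of similar length had a peak in the pooled list of 96 h.

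**Figure D3:**
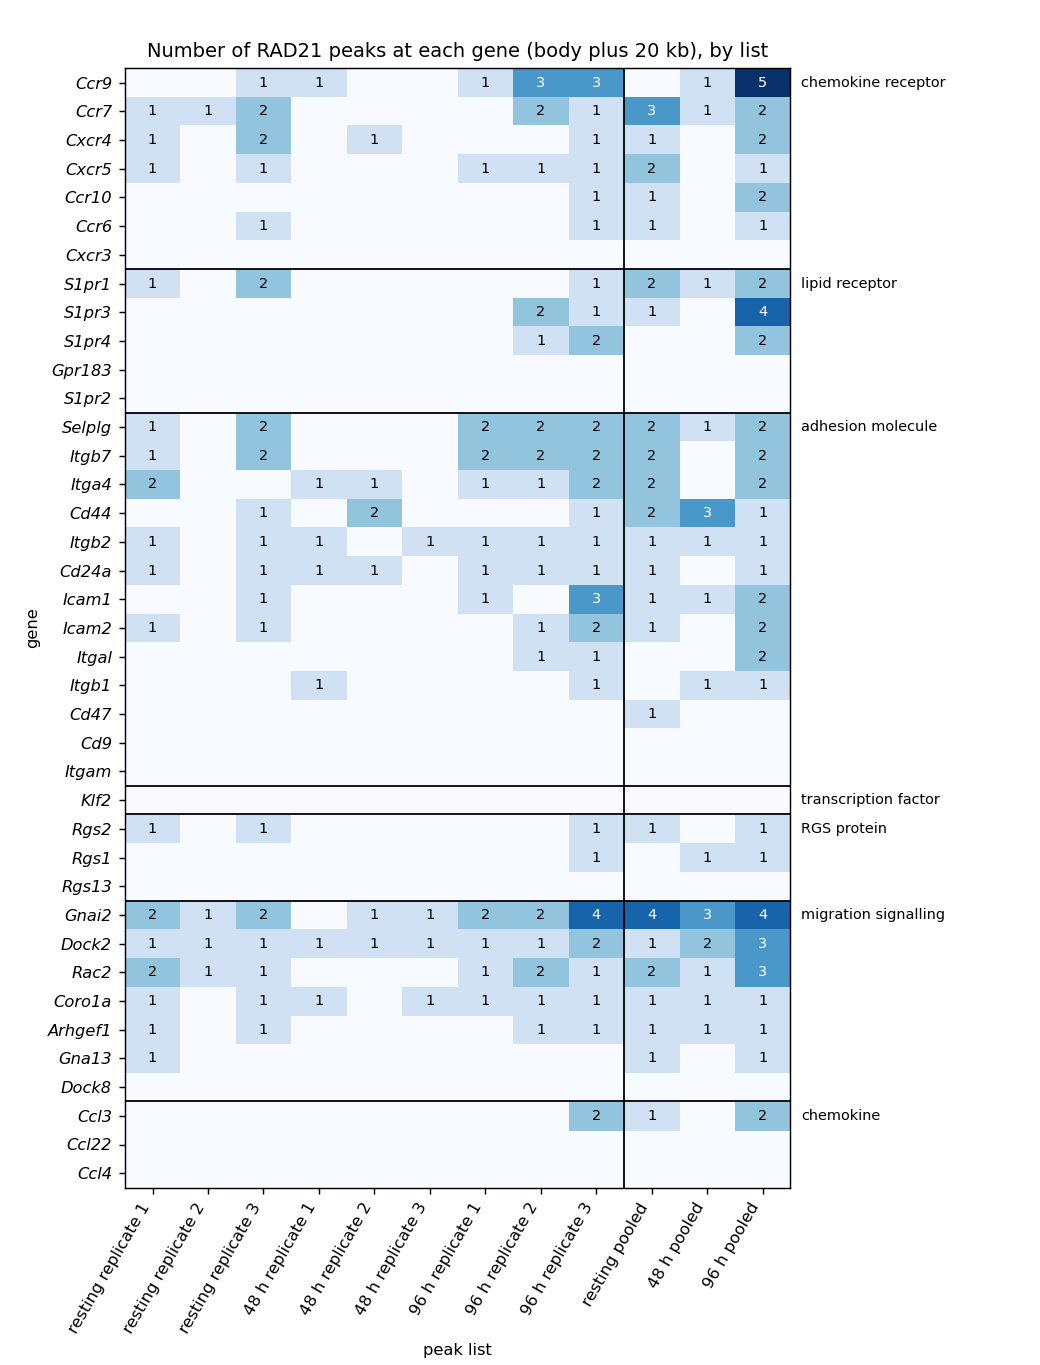
Number of RAD21 peaks at each of the 39 genes (rows, grouped by role) in the 9 replicate lists and the 3 pooled lists (columns); empty cells are 0. The most peaks, 5, were at Ccr9 in the pooled list of 96 h, 10 rows are empty throughout, and the columns of resting replicate 2 and of the 48 h replicates hold 4 to 7 peaks each, the fewest of the replicate lists.

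Presence in all replicates of one time point and in none of another is the largest difference these lists can show. Ccr7 and Rac2 had a peak in all 3 resting replicates and in no replicate of 48 h, which is 2 of 39 genes, against 0.689% of all protein-coding genes. Cxcr5, Selplg, Itgb7 and Rac2 had one in all 3 replicates of 96 h and in none of 48 h, which is 4 of 39 (10.3%), against 4.18%. There were 0 of 39 genes in each of the other directions, in which 0.0224% of all genes were present at rest and not at 96 h, 0.0671% at 48 h and not at rest, 0.00447% at 48 h and not at 96 h, and 2.76% at 96 h and not at rest. These counts depended on single libraries. Without replicate 2 of resting B cells, the shortest list, 9 of 39 genes were present at rest and not at 48 h, against 3.01% of all genes. Without replicate 1 of 96 h, 10 of 39 genes were present at 96 h and not at 48 h, against 9.93% of all genes. In the same setting 3 of 39 were present at 96 h and not at rest, against 7.35%. With resting replicate 1 or 3 left out, 1 gene (2.56%) was present at 96 h and not at rest, against 3.44% and 4.56% of all genes.

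Presence in the replicates was also compared between time points for every protein-coding gene with a peak in at least 1 replicate, by an exact permutation test over the 1680 arrangements of the 9 replicates. Of 10681 genes, 456 (4.27%) had an unadjusted p under 0.05, and 0 (0%) passed after Benjamini-Hochberg adjustment, the smallest adjusted p being 0.837. Of the 28 listed genes tested, 1 passed unadjusted and 0 adjusted. That gene was Rac2, with a peak in 3 resting, 0 of 48 h and 3 of 96 h replicates (exact permutation p = 0.0357, the smallest this test can give, adjusted p = 0.837). Cxcr5, Selplg and Itgb7, in 2, 0 and 3 replicates, and Ccr7, in 3, 0 and 2, each had an exact permutation p = 0.143. A gene at the smallest possible p could pass the correction only if 7630 genes reached that p, so the adjusted test could hardly have made a call in this design.

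Of the chemokine receptors, 5 of 7 had a pooled peak in resting B cells, 2 at 48 h and 6 at 96 h. Cxcr5, the receptor for the follicular chemokine CXCL13, had its most frequent site 9559 bp past the end of the gene at chr9:44310176-44310454, where the nearest start was that of Bcl9l, 3093 bp away. In resting B cells it was called in replicate 3, at the 74.3 score percentile of that list. A percentile is the rank of a peak's score, counted from the lowest, as a percent of the peaks in the same list. Equal scores share their mean rank. At 96 h it was called in replicates 1, 2 and 3 at percentiles 74.1, 61.9 and 20.7, and it was called in no replicate of 48 h. Its pooled percentiles were 66.1 at rest and 79.8 at 96 h. A second site 167 bp before the start of Cxcr5, chr9:44334504-44334809, was seen only in replicate 1 and the pooled list of resting B cells, at percentiles 2.12 and 25.5, and held a GT repeat of 24 bases.

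Ccr7, the receptor that draws B cells to the T cell zone, had 4 sites. The one at its start, chr11:99016414-99016733, centred 192 bp upstream, was called in resting replicates 2 and 3 at percentiles 36.5 and 79.9 and in replicate 2 of 96 h at 0.824. In the pooled lists it stood at percentile 65.8 in resting B cells, 13.4 at 48 h and 12.8 at 96 h. Resting replicates 1 and 3 each had a further upstream site, 13047 and 16008 bp before the start, at percentiles 14.4 and 47.2, and replicate 1 had no peak at the start, so the presence of Ccr7 in all resting replicates rested on different sites. An intronic site 4978 bp inside the gene, chr11:99011274-99011530, was in the pooled list of 96 h alone, at percentile 60.3, and in replicates 2 and 3 of that time point at 8.44 and 31.

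Cxcr4, the receptor for CXCL12 that leads plasma cells to the bone marrow, had a site 381 bp before its start at chr1:130489088-130489386. It was called in resting replicates 1 and 3 at percentiles 51 and 18, in replicate 2 of 48 h at 0.0952 and in replicate 3 of 96 h at 84.1. In the pooled lists it stood at percentile 69.9 in resting B cells and 17.5 at 96 h, so the pooled rank at 96 h went against that of the single replicate in which it was called. A weak peak in the coding exon, 86 bp from the nearest annotated start, was called in resting replicate 3 at percentile 1.05.

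Ccr9, the receptor for the gut chemokine CCL25, had the most sites of the chemokine receptors, 5 in a gene body of 103533 bp and its surroundings. The intronic site chr9:123682461-123682711 was called in resting replicate 3 at percentile 10.6 and in replicates 1, 2 and 3 of 96 h at 57.8, 73.1 and 66.4. Its percentiles in the pooled lists were 22.5 at 48 h, where no replicate had the peak, and 92.3 at 96 h, and the site held a GA repeat of 34 bases. A site 14378 bp past the gene, chr9:123705315-123705622, was in the pooled list of 96 h alone, at 74.3. It was called in replicates 2 and 3 of 96 h at 75.2 and 43 and in replicate 1 of 48 h at 26.2, so its absence from the pooled list of 48 h was not an absence from every replicate. Its nearest start, 10128 bp away, belonged to Cxcr6, another chemokine receptor. The other 3 sites were in the pooled list of 96 h at 21.8, 23.1 and 3.71, of which the first was called in replicate 3 of 96 h at 38.3 and the next in replicate 2 at 10.3.

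The receptors with few sites completed the group. Ccr6, the receptor for CCL20, had 1 site, 7721 bp past the gene, in replicate 3 of resting and of 96 h-stimulated B cells, at percentiles 66.8 and 47.2. Ccr10, found on plasma cells that home to mucosa, had an upstream site called in replicate 3 of 96 h at 60.3 and in the pooled lists of resting and 96 h-stimulated B cells at 40.1 and 43.2, and an exonic site in the pooled list of 96 h at 3.71. Cxcr3, the receptor for interferon-induced chemokines, had none.

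Of the 5 annotated lipid receptors, 2 had a pooled peak in resting B cells, 1 at 48 h and 3 at 96 h. S1pr1, the sphingosine-1-phosphate receptor by which lymphocytes leave lymphoid organs, had its sites at annotated starts. The site chr3:115417687-115418013, centred 111 bp past the start in an untranslated exon, was called in resting replicates 1 and 3 at percentiles 56.4 and 2.15 and in replicate 3 of 96 h at 19.7. The second, chr3:115415823-115416036, 366 bp before an alternative start, was called in resting replicate 3 at 54.7. In the pooled lists, the first stood at 71.7 at rest and 29.4 at 96 h, and the other at 74.7 and 30.7, with 4.5 at 48 h. Both were thus ranked lower at 96 h than at rest.

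S1pr3, a receptor of the same family that is found on marginal zone B cells, had the most sites of the lipid receptors, 4. The site in its untranslated exon, chr13:51513946-51514221, was called in replicates 2 and 3 of 96 h at percentiles 56.1 and 53.1, and its pooled percentile was 18.5 in resting B cells and 77.1 at 96 h. The other 3 were in the pooled list of 96 h, at percentiles 35.4, 2.37 and 16.8, and 1 of them was called in replicate 2 of 96 h at 0.472.

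S1pr4, another sphingosine-1-phosphate receptor of lymphocytes, had peaks at 96 h and at no other time point. Its site chr10:80965461-80965714, 3138 bp upstream, was called in replicates 2 and 3 at 83.9 and 63.2 and in the pooled list at 86.7. A site 4650 bp past the gene was called in replicate 3 at 36.2. Gpr183 and S1pr2 had no peak.

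Of the 13 adhesion molecules, 9 had a pooled peak in resting B cells, 5 at 48 h and 10 at 96 h. Integrins are pairs of an alpha and a beta chain that bind ligands on other cells and in the matrix. Itgb2, the beta chain of LFA-1, had a single site, chr10:76979845-76980140, 13003 bp upstream and 1436 bp from the start of 1810008A18Rik. It was called at percentiles 94.7 and 94.6 in resting replicates 1 and 3, at 20.0 and 75.5 in replicates 1 and 3 of 48 h, and at 99.4, 99.6 and 98.8 in replicates 1, 2 and 3 of 96 h. It had the highest score of the listed genes in the pooled list of 96 h, at percentile 99.9, after 96.6 in resting B cells and 84.4 at 48 h. Itgal, the alpha chain of LFA-1, had pooled peaks at 96 h alone. Its site chr7:134485908-134486131, 7371 bp past the gene, was called in replicates 2 and 3 of 96 h at 26.7 and 62 and in the pooled list at 72.9.

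Itga4 and Itgb7 encode the chains of the gut-homing integrin of lymphocytes. The site at the start of Itga4, chr2:79095292-79095639, centred 150 bp upstream, was called in resting replicate 1 at percentile 44.7, in replicate 1 of 48 h at 15.5 and in replicates 1, 2 and 3 of 96 h at 64.5, 9.15 and 77.9. Its pooled rank was 64.5 in resting B cells and 88.4 at 96 h. An intronic site of Itga4, 10313 bp from the nearest start, was called in resting replicate 1 at 54.1 and in replicate 3 of 96 h at 33.9, with pooled values of 72.5 at rest and 54.4 at 96 h. Another, of 58 bp, overlapped the CT repeat printed above and was called in replicate 2 of 48 h alone, so without that replicate Itga4 had a peak in 5 of 8 replicates.

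Both sites of Itgb7 were called in all 3 replicates of 96 h and in none of 48 h. The site in a coding exon, chr15:102054916-102055213, stood at percentiles 58.2 and 3.62 in resting replicates 1 and 3 and at 50.5, 53.3 and 87.7 in those of 96 h, with pooled values of 77 at rest and 92.1 at 96 h. The site 7467 bp upstream, chr15:102069698-102069974, stood at 50.2 in resting replicate 3 and at 73, 64.9 and 58.2 at 96 h. Its nearest start, 7098 bp away, was that of Rarg. The pooled percentile of the upstream site was 19.9 at rest and 89.2 at 96 h, which was 69.3 points higher and the widest gain in rank among the 30 sites of these genes that were in both lists. Itgb1, the beta chain shared by many integrins, had 1 intronic site, called in replicate 1 of 48 h at 45.9 and in replicate 3 of 96 h at 24.

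Selplg, the selectin ligand PSGL-1, had 3 sites. The upstream site chr5:114294793-114295071, 14425 bp before the start, was called in resting replicates 1 and 3 at percentiles 54.8 and 71.7 and in replicates 1, 2 and 3 of 96 h at 91.5, 89 and 99.1, and its pooled percentiles were 79.9 at rest and 99.3 at 96 h. The downstream site chr5:114265780-114266073, 1870 bp past the gene, was called in replicates 1, 2 and 3 of 96 h at 63.1, 40.7 and 92.2 and in no other replicate. It was the only site of the listed genes in all replicates of 96 h and in none of the resting ones, but it was in the pooled list of resting B cells at percentile 63.2, and in those of 48 h and 96 h at 17.1 and 93.8. The last site, 3988 bp past the gene, was called in resting replicate 3 at 20.8.

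Cd24a, a small glycoprotein of maturing B cells, also had 3 sites. The one 4035 bp upstream, chr10:43294790-43295102, was called in resting replicates 1 and 3 at 81.2 and 10.6 and in replicates 1, 2 and 3 of 96 h at 28.6, 70.6 and 64, with pooled values of 75.5 at rest and 87 at 96 h. The others were called in 1 replicate of 48 h each, replicate 2 at 47.6 and replicate 1 at 0.0975, and neither was in a pooled list.

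Cd44, the hyaluronan receptor, had 3 sites, and its counts at 48 h rested on the replicate that stood apart. The site 1908 bp upstream, chr2:102743519-102743865, was called in replicate 2 of 48 h at 95.4 and in replicate 3 of 96 h at 2.44. A downstream site was called in that same 48 h replicate at 47.6, and another in resting replicate 3 at 50.2. No other replicate of 48 h had a peak at Cd44. In the pooled lists the upstream site stood at 23.9, 93.1 and 29.5 at rest, 48 h and 96 h. The first downstream site was at 74.8 at 48 h, and the other at 45.9 at rest and 22.5 at 48 h.

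Icam1 and Icam2 encode ligands of LFA-1. At Icam1, the site chr9:20833934-20834194 lay 836 bp past the gene and 260 bp from the start of Icam4, its neighbour in the same family. It was called in resting replicate 3 at 59.6 and in replicates 1 and 3 of 96 h at 19.8 and 58.2, and its pooled rank was 31.2 at rest and 73.5 at 96 h. A pair of sites 14962 and 17446 bp upstream were called in replicate 3 of 96 h at 45.2 and 75.9, and in the pooled lists of 48 h and 96 h, respectively, at 34.3 and 78.8. Icam2 had a site 3927 bp upstream, chr11:106253143-106253456, in resting replicates 1 and 3 at 82.8 and 44 and in replicates 2 and 3 of 96 h at 61.9 and 81.7. Its second site, 11085 bp past the gene, was called in replicate 3 of 96 h at 20.1. Itgam, the alpha chain of Mac-1, and Cd9, a tetraspanin, had no peak.

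Of the 3 RGS proteins, which shorten signals from G protein-coupled receptors, 1 had a pooled peak in resting B cells, 1 at 48 h and 2 at 96 h. Rgs2 had a site 2612 bp upstream, called in resting replicates 1 and 3 at percentiles 12.9 and 24.7 and in replicate 3 of 96 h at 8.91. Rgs1 had a site 340 bp past the gene, called in replicate 3 of 96 h at 32.1 and in the pooled lists of 48 h and 96 h at 22.5 and 46.5. Rgs13 had none.

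Several of the signalling genes had peaks in most replicates. Of 7, 6 had a pooled peak in resting B cells, 5 at 48 h and 6 at 96 h. Dock2, the activator of RAC GTPases needed for lymphocyte chemotaxis, was the only listed gene with a peak in all 9 replicates. Its site chr11:34609598-34609917, 12393 bp upstream, was called in 8 of them, more than any other site of these genes. The percentiles were 78.2, 5.48 and 79.3 in resting replicates 1, 2 and 3, 4.49 and 8.64 in replicates 1 and 3 of 48 h, and 92.1, 43.8 and 93.7 in those of 96 h. The pooled values were 91.2, 62.3 and 96 at rest, 48 h and 96 h. The peak of Dock2 in replicate 2 of 48 h was at another site, 3422 bp past the gene, at 80.5. The body of Dock2 spans 470580 bp, and 63.1% of genes of similar length had a pooled peak at 96 h.

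Rac2, the RAC GTPase of blood cells, had a peak in every resting and every 96 h replicate and in none of 48 h. The site chr15:78417788-78418064, 14717 bp upstream and 9547 bp from the start of Cyth4, was called at percentiles 67.2, 12.6 and 64.5 in resting replicates 1, 2 and 3 and at 52.3, 40.7 and 78.4 in those of 96 h. It was in the pooled list of 48 h at 22.5, against 88.7 at rest and 86.6 at 96 h, so the merged reads of 48 h did pass the threshold there. The site 9322 bp upstream, chr15:78412395-78412681, was called in resting replicate 1 at 65.8 and stood at 74.9 in the resting and 2.61 in the 96 h pooled list, the widest loss of rank among the 30 sites in both. Another site, 11612 bp past the gene, was called in replicate 2 of 96 h at 58.9, and was at 78 in the pooled list.

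Gnai2 encodes the inhibitory G protein subunit through which chemokine receptors signal, and had the most sites of all the listed genes, 6. The downstream site chr9:107504453-107504705 was called in resting replicates 2 and 3 at percentiles 12.6 and 79.9, in replicate 3 of 48 h at 76.5 and in replicates 2 and 3 of 96 h at 4.23 and 53.2. The upstream site chr9:107546865-107547222, 9404 bp before the start, was called in resting replicate 1 at 58.2 and in replicates 1, 2 and 3 of 96 h at 63.1, 74.5 and 95.2, and stood at 84 and 96.3 in the pooled lists of rest and 96 h. An intronic site was called in resting replicate 1 at 7.65 and in replicates 1 and 3 of 96 h at 5.93 and 59.1. Of the others, 1 was called in replicate 3 of resting and of 96 h-stimulated B cells, at 7.77 and 8.91, 1, of 79 bp, held the TC repeat printed above at its left edge and was called in replicate 2 of 48 h at 66, and 1 was in the resting pooled list alone at 19.9. In the pooled lists the downstream site stood at 89, 44.4 and 72.1 at rest, 48 h and 96 h, and the intronic one at 60.2 at rest and 73.6 at 96 h. The site called in replicate 3 of both was at 8.92 at 48 h and 35.8 at 96 h, and that with the TC repeat at 80.4 at 48 h. The 4 sites of Gnai2 with a match to the motif read plus, minus, minus, plus along the chromosome.

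Coro1a, an actin regulator of lymphocytes, had 1 site, chr7:133836784-133837074, 6351 bp past the gene and 2014 bp from the start of Bola2. It was called in 7 replicates, at percentiles 54.7 and 56 in resting replicates 1 and 3, at 75.6 and 48.1 in replicates 1 and 3 of 48 h, and at 19.9, 89.6 and 96.1 in replicates 1, 2 and 3 of 96 h. The pooled values were 72.5, 76.7 and 95.1 at rest, 48 h and 96 h. Like those of Itgb2 and Dock2, this site was called in both replicates of 48 h other than replicate 2. Arhgef1, which passes signals of the G12 and G13 family to RHOA, had a site 12244 bp upstream, chr7:25675526-25675847, in resting replicates 1 and 3 at 89.3 and 82.9 and in replicates 2 and 3 of 96 h at 80.0 and 94.3. Its peak in the pooled list of 48 h, at 13.4, lay at an intronic site with a T repeat of 36 bases. Gna13, of the same pathway, had a site 19045 bp past the gene, called in resting replicate 1 at 83.6, with pooled values of 52.2 at rest and 5.47 at 96 h.

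Of the chemokines, Ccl3 had 2 sites, both downstream and both called in replicate 3 of 96 h, at percentiles 38.3 and 44.5. They stood at 48.1 and 54.4 in the pooled list of 96 h, and the second was also in the resting pooled list at 17.4. Ccl4, its neighbour, and Ccl22 had none.

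**Figure D4:**
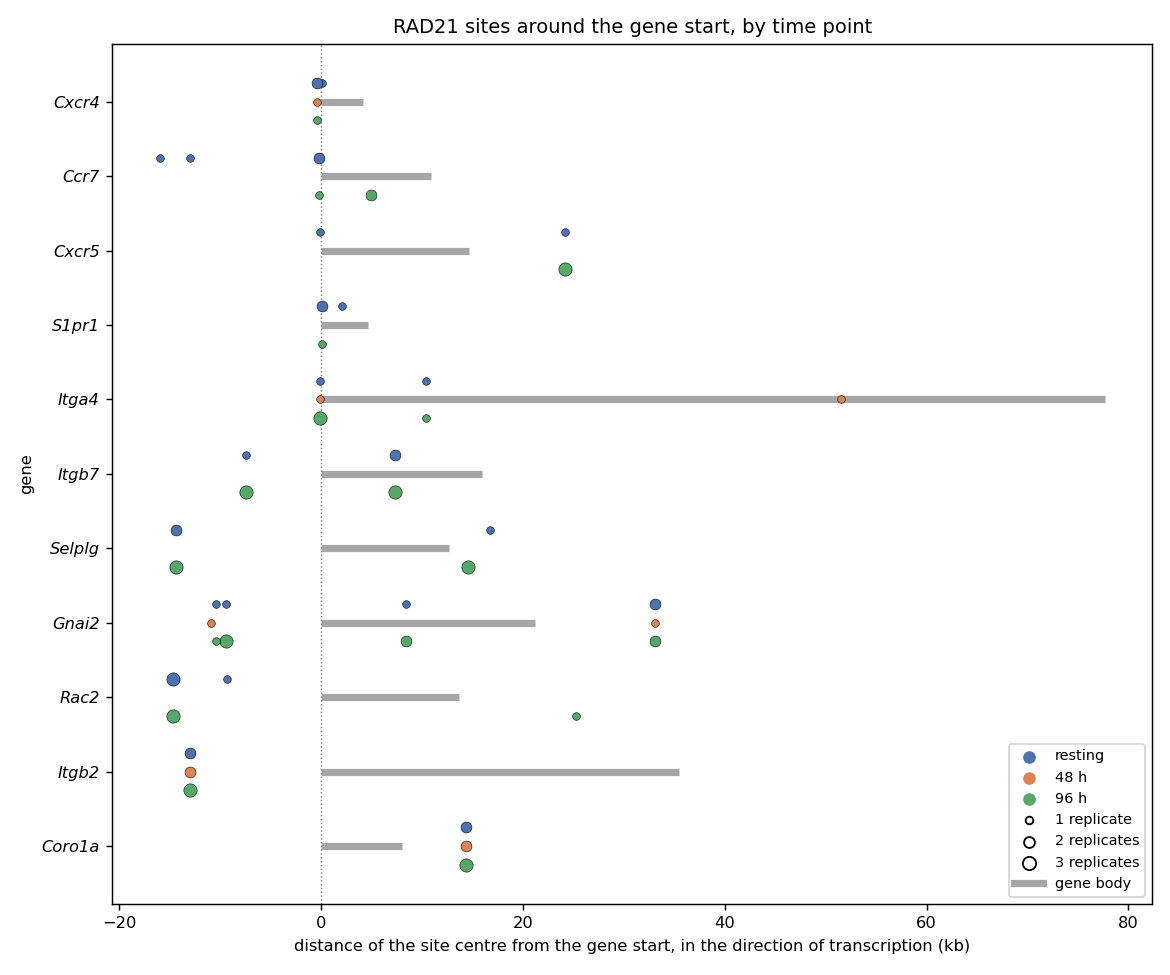
Distance in kb of each RAD21 site from the gene start, in the direction of transcription, for 11 of the genes described, with the gene body in grey, 1 row of circles per time point and circle size for the number of replicates with a peak. The sites of Cxcr4, Ccr7, Cxcr5, S1pr1 and Itga4 include at least 1 at the gene start, and those of Itgb2 and Coro1a lie outside the gene at all 3 time points. Rac2, Selplg, Itgb7, Cxcr5, Ccr7 and S1pr1 show no circle at 48 h.

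By position, 26 of the 70 sites lay upstream of the gene, 22 downstream, 15 in introns, 4 in coding exons and 3 in untranslated exons. Most were called in few replicates, as were most sites of the series. No replicate had a peak at 10 of the sites (14.3%, against 19.8% of all sites), which were in pooled lists alone, and 1 replicate had one at 28 (40%, against 48.2%). At least 6 replicates had one at 4 (5.71%, against 4.94%), the sites of Dock2, Itgb2, Coro1a and Rac2 given above. The sites of the series include 4763 called in replicate 2 of 48 h and no other replicate, against 5 at the listed genes. These raise the share of the series in 1 replicate and lower its other shares, so the small differences in replicate support cannot be read as particular to these genes. At single sites, 9 of 70 (12.9%) were called in all replicates of 96 h and in none of 48 h, against 4.36% of all sites. They were the sites given above at Cd24a, Rac2, Cxcr5, Gnai2 and Ccr9, and both sites of Itgb7 and 2 of Selplg. The site of Rac2 was the only 1 called in all resting replicates and in none of 48 h, against 0.665% of all sites, and the downstream site of Selplg the only 1 in all replicates of 96 h and none of rest, against 3.17%. The other directions held 0 of the 70, against 0.0475% of all sites for rest and not 96 h, 0.0317% for 48 h and not rest, and 0.0158% for 48 h and not 96 h.

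Some of the sites lay at gene starts. A pooled peak lay within 1 kb of a start of the gene at 5 of 39 genes in resting B cells (12.8%), namely Cxcr5, Cxcr4, Ccr7, S1pr1 and Itga4, against 2.20% of all protein-coding genes. At 48 h there were 2 (5.13%), Ccr7 and S1pr1, against 1.10%. At 96 h there were 5 (12.8%), Cxcr4, Ccr7, S1pr1, Itgal and Itga4, against 3.88%. No single replicate had more than 4 of the genes so marked, and the highest number was in resting replicate 1. Of the 10 sites within 1 kb of any start, 2 (20%) held a match to the motif, those at Cxcr4 and Icam1, against 37.0% of the 1111 such sites in the series.

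The ranks of sites present in both resting and 96 h-stimulated B cells were compared between the pooled lists. Across the series, 4913 sites were in both, and their median percentile was 55.7 at rest and 73.7 at 96 h, while the list of 96 h was the longer one. Of the 30 sites at the listed genes in both lists, 12 stood lower at 96 h (40%), against 31.1% of all. Of the 6 within 1 kb of a start, 4 stood lower at 96 h, against 39.2% of the 390 such sites in the series. All 4 stood at least 40 points lower, against 6.41% of the 390. The limit of 40 points was not set in advance and lies just under the smallest of the 4 losses, 42.3 points. The comparison with 6.41% is therefore a description and no measure of how unusual these sites are. The 4 were the start sites of Cxcr4 and Ccr7 and both sites of S1pr1. The remaining ones stood higher at 96 h, that of Itga4 by 24.0 points and that near Icam4 by 42.2. Of the 24 sites farther from a start, 2 stood at least 40 points lower at 96 h, those of Gna13 and Rac2 given above, against 3.05% in the series. With 1 pooled list per time point, these differences have no replicate check and no test. Each of the 4 start sites was called in at most 1 replicate of 96 h. Its percentile there was above both resting ones at Cxcr4, below both at Ccr7 and between them at the first site of S1pr1, and the other site of S1pr1 was called in no replicate of 96 h.

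**Figure D5:**
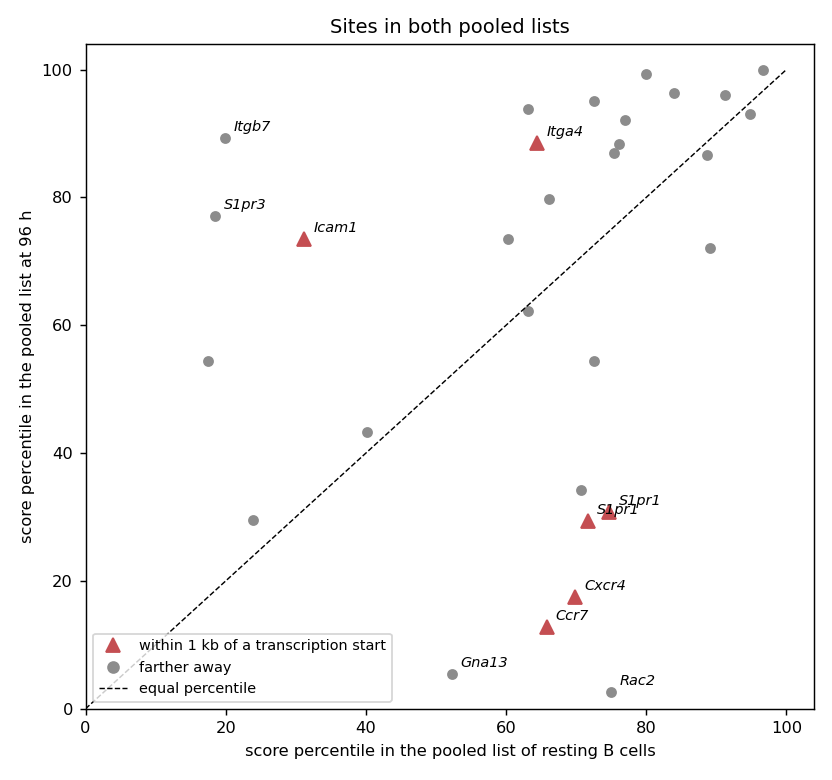
Score percentile of the 30 sites at homing and adhesion genes that were in the pooled lists of both resting B cells (x axis, %) and 96 h-stimulated B cells (y axis, %), with triangles for sites within 1 kb of a transcription start and circles for the others. The triangles of Ccr7, Cxcr4 and S1pr1 lie far below the line of equal percentile, at 12.8 to 30.7 at 96 h after 65.8 to 74.7 at rest, while those of Itga4 and Icam1 lie above it.

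A separate list of 71 other genes of homing and adhesion, in the same roles and with genes of lipid metabolism added, was set beside them. Of these, 41 (57.7%) had a pooled peak in resting B cells, 24 (33.8%) at 48 h and 50 (70.4%) at 96 h, against 28.6%, 22.2% and 51.4% of genes of similar length. By role, in the same order of time points, these were 6, 1 and 10 of 11 chemokine receptors, 8, 6 and 9 of 12 adhesion molecules, and 18, 10 and 18 of 24 signalling genes. There were 2, 1 and 3 of 9 chemokines, 2, 1 and 2 of 3 lipid receptors, and 1, 0 and 3 of 6 genes of lipid metabolism. The RGS proteins, with 4, 5 and 5 of 6, were not fewer at 48 h. Of the 71, 1 was present in all replicates of 96 h and in none of 48 h, against 4.18% of all protein-coding genes. There were 0 in each of the other directions. The shares of all genes there were 2.76% for 96 h and not rest, 0.689% for rest and not 48 h, 0.0671% for 48 h and not rest, 0.0224% for rest and not 96 h, and 0.00447% for 48 h and not 96 h.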

How the data were processed

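The authors mapped reads to mm9 with Bowtie 2 and subsampled every library to the same number of unique positions. MACS 2, run with input as control and a false discovery rate of 0.05, gave peaks for each replicate and for the merged replicates of each time point. The deposited lists hold a score per peak, whose statistic is not given in the sources used here, and no read counts. Scores were used only as ranks within a list or as a stricter minimum. Of 18 libraries, the 9 inputs entered only through the peak calling.

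The homing and adhesion genes and the other list of 71 were chosen with earlier results of these data known. Genes were taken from GENCODE M1 on mm9, 22367 of them protein-coding, with Python 3.11.15, numpy 2.4.6 and scipy 1.17.1, and plots drawn with matplotlib 3.10.9. Genes of similar length numbered 388 to 4682 per gene. Presence was compared by an exact permutation test of the sum of squares between time points, and p-values were adjusted over all genes tested (Benjamini-Hochberg, threshold 0.05). Values in the replicate and pooled lists are given for sites in at least 6 replicates, all-or-none sites and genes, the gene with most sites in each role, sites within 1 kb of a start in at least 2 replicates, and sites in 1 pooled list with at least 2 replicates of that time point. The further sites named were chosen after their values were seen. The search for tandem repeats and the comparison of percentiles at gene starts were added after the lists had been seen. On simulated lists, 200 of 200 planted peaks were assigned to their gene, and 150 of 150 shared sites and 200 of 200 all-or-none genes were found.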

Additional observations from a re-analysis of the deposited data

How the results depend on the processing

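Of 350 recomputed values, 293 stayed within a set limit and 57 moved further. For percents of genes and their ratios, the limit was the exact 95% binomial confidence interval over the genes. For means it was the SD between replicates, and for counts a factor of 1.5, with any change to or from 0 taken as a move. Changes of direction against all genes were not counted. With 5 kb around the gene, 38.5% of the genes had a pooled peak at rest and 51.3% at 96 h, with 39 sites in all and 18, 9 and 30 in the pooled lists of rest, 48 h and 96 h. The mean number of peaks per replicate was then 2.33 at 48 h and 13 at 96 h, and the mean percent of peaks at the genes 0.311, 0.0904 and 0.249. At this window 0 genes were present at rest and not at 48 h, against 0.376% of all genes. With 50 kb, the genes with a pooled peak were 89.7%, 71.8% and 94.9%, and the sites 127 in all and 69, 42 and 103 pooled. The mean peaks were then 33, 16 and 51, and the mean percent 1.60, 0.851 and 0.989. At 50 kb, 2 of 39 genes were present at 96 h and not at 48 h, against 6.22% of all genes. With a stricter score minimum (10.65 for replicates and 13.73 for pooled lists), 10.3% of the genes had a pooled peak at 48 h, with 45 sites in all, 4 pooled at 48 h and 33 at 96 h. Mean peaks at 48 h were 2, and the mean percent at 96 h was 0.633. At this minimum 0 of 39 genes were present at rest and not at 48 h, against 0.519% of all genes, and 1 of 39 at 96 h and not at rest, against 1.48%. With lists of equal length (821 peaks per replicate and 5579 pooled), 48.7% of the genes had a pooled peak at 96 h, in 26 sites. Mean peaks were 1.33 at 48 h and 5.33 at 96 h, and the mean percent at 96 h was 0.650. By all-or-none presence, 1 of 39 genes was present at rest and not at 48 h, against 0.411% of all genes. There was 1 of 39 at 96 h and not at rest, against 0.304%, and 1 of 39 at 96 h and not at 48 h, against 0.483%. With support by at least 2 replicates, 35.9%, 7.69% and 46.2% of the genes had a pooled peak, in 14, 3 and 23 sites. Beyond the smaller or larger number of peaks that each setting admits, the cause was not tested.

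Each replicate was also left out in turn. The pooled lists could not be called again without its reads, so only pooled peaks supported by that replicate alone were removed. Pooled peaks with other support, or with none, stayed in. The pooled ranges therefore cannot show how far a pooled list depends on 1 library. The percent of genes with a pooled peak ranged from 56.4 to 61.5 at rest, 33.3 to 35.9 at 48 h and 56.4 to 71.8 at 96 h. Sites ranged from 64 to 70 in all, 28 to 36 at rest, 15 to 19 at 48 h and 37 to 54 at 96 h. Mean peaks ranged from 12 to 22.5, 5.5 to 7 and 20 to 33, and the mean percent of peaks from 0.593 to 0.826, 0.195 to 0.356 and 0.506 to 0.542. Genes present at rest and not at 48 h ranged from 2 to 9, the 9 being without replicate 2 of rest. Those at 96 h and not at rest ranged from 0 to 3, the 3 being without replicate 1 of 96 h, and those at 96 h and not at 48 h from 4 to 10, the 10 again without replicate 1 of 96 h. In the other directions the number was 0 throughout. Replicate numbers were shared between time points, and 1 of 9 correlations between same-numbered replicates was over 0.1 (range -0.0836 to 0.225). Such correlations cannot show whether same-numbered replicates shared mice or a batch, which the sources used here do not state. The main test did not pair them. With the replicate number as a block (replicate block), 0 genes passed adjusted or unadjusted, and none could, since the smallest exact permutation p of that design is 0.111.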

Other observations

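Among the 71 other homing and adhesion genes, 15 (21.1%) had a RAD21 peak in at least 6 of the 9 replicates, against 6.29% of all protein-coding genes. Pecam1, an adhesion molecule of vessels and leukocytes, and Elmo1, the partner of Dock2 in RAC activation, had a peak in all 9. Elmo1 had 5, 3 and 5 peaks in the pooled lists of resting, 48 h-stimulated and 96 h-stimulated B cells, and Pecam1 had 3, 2 and 4. Those in at least 6 replicates also included Ccr1, Ptger4, Itgav, Itgb3, Cd22, Cd48, Rgs3, Rgs16, Rgs19, Gnai3, Grk6 and Apbb1ip. No list had a peak at 20 of the 71 genes (28.2%), against 44.7% of all protein-coding genes. They included the chemokines Cxcl13, Ccl19, Ccl20, Ccl17, Ccl5 and Cxcl10 and the vascular ligand Vcam1.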
